A study of Mus musculus with 10 samples.

Results

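The genes described here are the receptor for erythropoietin, Epor, and 9 nuclear proteins of the erythroid programme: Klf1, Gata1, Gfi1b, Tal1, Nfe2, Zfpm1, Lmo2, Hemgn and Bcl11a. They were picked by symbol, and all 10 were found among the 52097 genes of the deposited table. RNA had been measured in haematopoietic stem cells that were sorted from mouse bone marrow as CD150+ CD48- cells within the Lin- Sca-1+ c-Kit+ fraction at about 5000 cells a sample, with a Smart-Seq V4 library from each. Control libraries (n = 5, named Dhx16_fl in the sample titles, genotype WT) were compared with libraries labelled as Dhx16 knockout (n = 5, titled Dhx16_CKO, genotype KO). Dhx16 encodes a DEAH-box helicase of the spliceosome, and the series title asks about its role in these cells. The names point to a floxed allele deleted conditionally. The driver and timing of deletion, the strain, sex and age of the mice, and whether each sample came from its own animal are not given in the sources used here, so every p-value below measures the spread between samples, which may be technical.

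Erythroid cells arise from stem cells through progenitors in which a small set of transcription factors comes to act together. GATA1 binds WGATAR sites with its cofactor FOG1 (Zfpm1) and sits beside the SCL complex, in which TAL1 and LMO2 are held together with LDB1. KLF1 binds CACCC boxes and switches on globin, haem and membrane genes. GFI1B and BCL11A repress, NFE2 pairs with small MAF proteins, and signalling through the erythropoietin receptor keeps late progenitors alive through JAK2 and STAT5. Most of these factors are also present in stem cells or megakaryocytes, whereas KLF1 marks commitment to the erythroid branch.

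The 10 genes did not move as a group. Klf1, Epor and Hemgn rose in knockout libraries under every scaling of the libraries tried. Mean Klf1 was 5.47-fold, Hemgn 2.22-fold and Epor 2.08-fold the control mean. Gata1 rose slightly and Gfi1b did not pass the test on the values as deposited, while Tal1, Nfe2, Lmo2 and Zfpm1 fell, calls that depended on the scaling. Bcl11a did not pass the test.

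Values are in FPKM (fragments scaled to transcript length and to the fragments of the library), which can be compared between genes because length is divided out. Changes are knockout minus control on the scale of log2 (FPKM + 1), with a standard error (SE), and a gene was called when its limma p-value, adjusted over the 6913 genes that reached 10 FPKM in 5 or more libraries, was under 0.05. Of the 10 genes, 9 passed that filter. Zfpm1 did not, and its test comes from a fit of the 13448 genes that reached 1 FPKM in 5 or more libraries. Of the 9, 4 were called higher and 3 lower, against 21.1% of all tested genes called higher, 31.6% called lower and 52.7% called in either direction. Across the tested genes the median change was -0.12.

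Dhx16 itself was at 14.3 to 22.6 FPKM in the controls and at 7.1 to 10.9 FPKM in the knockouts. It is not known whether these values include the deleted part. Library sums were 770800 to 957500 FPKM in the controls and 877100 to 966600 FPKM in the knockouts. Depth, estimated from the step between low values, was 12400000 to 17000000 fragments in controls and 12000000 to 19300000 in knockouts. Of the genes behind the sort, Kit (153.8 ± 26.1 against 123 ± 37.0 FPKM, SD, n = 5 each) and Ly6a (196 ± 77.5 against 203 ± 36.4) did not pass the test, and Slamf1, which encodes CD150, fell from 21.5 ± 4.65 to 10.9 ± 2.20 FPKM (limma adjusted p = 0.000277). All 11 tested haematopoietic stem cell genes were called lower, 4 of them under every scaling, against 31.6% and 10.9% of all tested genes. RNA of other cells was present in uneven amounts. Summed bone matrix genes reached 65870 FPKM in control library WT6 and 28258 and 47778 FPKM in knockout libraries CKO12 and CKO13, against 3180 to 15720 FPKM in the others. Summed granulocyte genes ranged from 8561 to 74543 FPKM. None of the 6 bone matrix or 9 granulocyte genes was called in either direction or at 0 in all libraries. Their median change was -0.04 for bone matrix and -1.19 for granulocyte genes, with a wide spread within each group. Summed macrophage genes fell from 155 to 320 FPKM in controls to 17.2 to 38.0 FPKM in knockouts. Of 9 such genes 4 were tested, and all 4 were called lower. A gene could pass the filter through the control libraries alone, which can tilt such counts towards lower calls. That holds here, for the stem cell genes and in the lists below. The part of these other cells in the results below was tested only by adding the bone matrix and granulocyte scores to the fit. In bulk libraries, fewer cells of a type and less RNA per cell cannot be told apart.

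**Figure D1:**
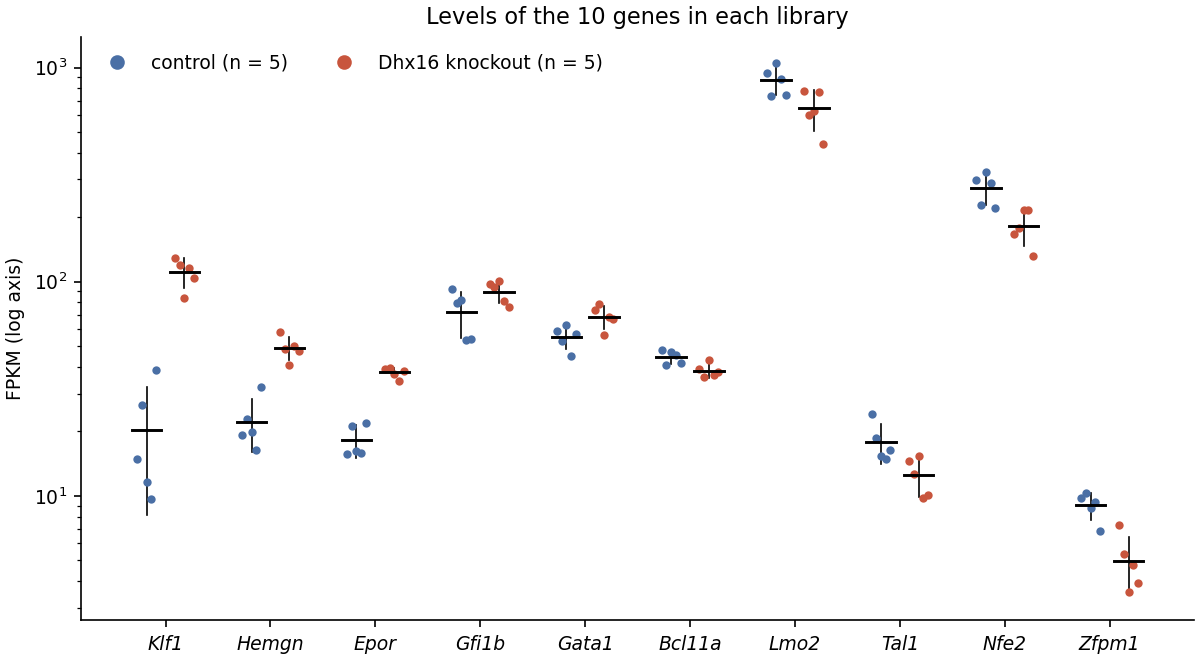
FPKM (log axis) of the 10 genes in each control (blue) and knockout (red) library, with the group mean as a horizontal bar and the SD as a vertical line (n = 5 each). The knockout points of Klf1, Hemgn and Epor lie above all control points and those of Nfe2 below them, and the other 6 genes overlap.

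Epor is the receptor through which erythropoietin signals. The gene (ENSMUSG00000006235) lies on the minus strand at chr9:21958897-21963506 (mm10). Its promoter is shown because its RNA rose and because it holds matches to both a GATA motif and a CACCC box. The sequence is the 250 bases before the RefSeq start (GRCm38.p6, chr9:21963577-21963826, minus strand), with the matches in capitals.
Epor: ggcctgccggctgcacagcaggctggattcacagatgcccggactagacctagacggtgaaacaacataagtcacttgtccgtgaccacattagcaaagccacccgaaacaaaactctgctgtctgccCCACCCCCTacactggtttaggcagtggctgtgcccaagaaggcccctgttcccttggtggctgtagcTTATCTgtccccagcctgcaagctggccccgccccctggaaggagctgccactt
Motifs were searched on both strands, and they do not overlap here. TTATCT, 54 bases before the start, is AGATAA on the opposite strand, and CCACCCCCT, 122 bases before it, matches CCACNCCCN. AGATAA occurred in 9.99% and CCACNCCCN in 15.8% of all 32851 RefSeq promoter windows of that length. A match is a run of letters and not evidence of binding.

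In the control libraries WT2, WT3, WT4, WT5 and WT6, Epor was at 15.7, 21.2, 16.1, 15.8 and 21.99 FPKM. In the knockout libraries CKO7, CKO8, CKO9, CKO12 and CKO13, it was at 39.1, 39.5, 37.0, 34.5 and 38.4 FPKM. All 5 knockout libraries were above all 5 controls, and the knockout libraries were closer together (coefficient of variation 5.33%) than the controls (17.3%). The change was 1.03 (SE 0.12, limma adjusted p = 1.36e-05, exact permutation p = 0.00794, the smallest that 5 against 5 allows). It ranked 282 of the 6913 tested genes from the highest change.

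Klf1 encodes the erythroid Krüppel-like factor, which activates globin and red cell membrane genes. The gene (ENSMUSG00000054191) lies on the plus strand at chr8:84901928-84905291. Its promoter is shown because it had the highest change of the 10 genes. The sequence is 196 bases (chr8:84901732-84901927, plus strand, GRCm38.p6), and the 54 bases between it and the RefSeq start are left out because an annotated exon covers them.
Klf1: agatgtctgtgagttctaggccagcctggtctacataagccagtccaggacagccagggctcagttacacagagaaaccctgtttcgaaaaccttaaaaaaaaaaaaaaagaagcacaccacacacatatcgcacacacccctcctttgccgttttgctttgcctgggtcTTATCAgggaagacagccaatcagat
TTATCA, 80 bases before the RefSeq start, is TGATAA on the opposite strand, a sequence found in 6.65% of all promoter windows cut in the same way. AGATAA, CCACNCCCN and the E-box CANNTG had no match in these letters.

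Klf1 was at 14.9, 26.6, 11.6, 9.63 and 38.5 FPKM in controls WT2 to WT6. It was at 129.7, 119.8, 83.9, 116 and 104 FPKM in knockouts CKO7, CKO8, CKO9, CKO12 and CKO13. The groups did not overlap, and the lowest knockout library, CKO9, was still above the highest control, WT6. Control libraries spread 3.996-fold from lowest to highest and knockout libraries 1.55-fold. The change was 2.56 (SE 0.35, limma adjusted p = 0.000296, exact permutation p = 0.00794), rank 18 of 6913. WT6 was also the control with the most globin and bone matrix RNA, and without it the Klf1 change was 2.83.

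Gata1 encodes the GATA factor that erythroid cells cannot mature without. The gene (ENSMUSG00000031162) lies on the minus strand at chrX:7959260-7978071. Its promoter window (chrX:7967911-7968160, minus strand, GRCm38.p6) is shown for comparison with the other 2, because Gata1 changed far less.
Gata1: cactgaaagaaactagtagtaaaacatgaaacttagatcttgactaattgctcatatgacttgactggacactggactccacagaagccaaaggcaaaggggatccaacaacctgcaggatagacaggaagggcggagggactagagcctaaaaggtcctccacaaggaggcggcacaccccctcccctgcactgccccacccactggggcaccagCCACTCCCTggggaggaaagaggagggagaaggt
CCACTCCCT, 34 bases before the start, matches the CACCC motif CCACNCCCN. AGATAA and TGATAA, the latter in 7.94% of all windows of 250 bases, had no match. The E-box CANNTG, present in 66.2% of those windows, matched 1 time here and 2 times in the Epor window, and is left in lower case.

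Gata1 was at 58.8, 53.1, 62.4, 45.0 and 56.7 FPKM in controls WT2 to WT6. It was at 74.0, 78.4, 56.4, 68.1 and 66.7 FPKM in knockouts CKO7, CKO8, CKO9, CKO12 and CKO13. In this gene 4 knockout libraries were above all controls and CKO9 lay within the control range. The change was 0.31 (SE 0.12, limma adjusted p = 0.0430, exact permutation p = 0.0317). The call was lost when the libraries were scaled to equal totals (0.17, limma adjusted p = 0.287), with the bone matrix and granulocyte scores as covariates (0.23, limma adjusted p = 0.235), and when any of WT3, WT5, WT6, CKO7, CKO8, CKO12 or CKO13 was left out (0.24 to 0.32, limma adjusted p from 0.0592 to 0.116).

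Zfpm1 encodes FOG1, the zinc finger cofactor that GATA1 needs at many of its targets (ENSMUSG00000049577, chr8:122282141-122337251, plus strand). It was the lowest of the 10 genes. Controls WT2 to WT6 were at 9.78, 10.4, 8.78, 9.33 and 6.86 FPKM, and knockouts CKO7, CKO8, CKO9, CKO12 and CKO13 at 7.3, 5.34, 3.54, 4.74 and 3.93 FPKM. CKO7 lay above the lowest control, WT6, and the other 4 knockout libraries were below all controls. With the 1 FPKM filter the change was -0.77 (SE 0.17, limma adjusted p = 0.00285), where 36.4% of genes were called lower and the median change was -0.26. The mean fell by 44.9%. It no longer passed under median-of-ratios scaling (-0.43, limma adjusted p = 0.0734) or the scaling to the authors' fold changes (-0.43, limma adjusted p = 0.0704).

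Hemgn encodes hemogen, a nuclear protein of blood progenitors and erythroid cells (ENSMUSG00000028332, chr4:46393989-46413506, minus strand). Controls WT2 to WT6 were at 19.3, 22.7, 19.8, 16.3 and 32.3 FPKM, and knockouts CKO7, CKO8, CKO9, CKO12 and CKO13 at 58.3, 48.7, 41.0, 50.03 and 47.5 FPKM. The groups did not overlap. As for Klf1, WT6 was the highest and WT5 the lowest control, and CKO7 the highest and CKO9 the lowest knockout library. The change was 1.15 (SE 0.16, limma adjusted p = 3.99e-05, exact permutation p = 0.00794), rank 206 of 6913.

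Tal1 and Lmo2 encode the DNA-binding and the bridging subunit of the SCL complex, which stem cells also need. Tal1 (ENSMUSG00000028717, chr4:115056426-115071755, plus strand) was at 24, 18.6, 15.3, 14.9 and 16.4 FPKM in controls WT2 to WT6 and at 14.6, 12.6, 15.3, 9.74 and 10.1 FPKM in knockouts CKO7, CKO8, CKO9, CKO12 and CKO13. Lmo2 (ENSMUSG00000032698, chr2:103957986-103981878, plus strand) was at 943, 738.5, 1047, 885 and 748 FPKM in controls and at 776, 603, 629, 771.5 and 439 FPKM in knockouts, in the same order. Both genes overlapped between groups: 4 knockout libraries lay below all controls for Tal1 and 3 for Lmo2. The change of Tal1 was -0.48 (SE 0.16, limma adjusted p = 0.0203) and that of Lmo2 was -0.45 (SE 0.17, limma adjusted p = 0.0344). With no filter on low values, Gata1, Tal1 and Lmo2 were not called (limma adjusted p = 0.115, 0.0809 and 0.102). Under median-of-ratios scaling neither Tal1 nor Lmo2 was called, at -0.12 for Tal1 (limma adjusted p = 0.516) and -0.07 for Lmo2 (limma adjusted p = 0.786), and with that scaling over the tested genes alone Lmo2 was not called (-0.36, limma adjusted p = 0.0811). The call of Tal1 was also lost without WT2 (-0.38, limma adjusted p = 0.0570) or without CKO13 (-0.42, limma adjusted p = 0.0571). That of Lmo2 was lost without any of WT2, WT4, WT5, CKO8, CKO9 or CKO13 (-0.32 to -0.45, limma adjusted p from 0.0505 to 0.098).

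Nfe2 encodes the large subunit of the NF-E2 dimer, which acts in red cells and in platelet release (ENSMUSG00000058794, chr15:103248212-103258403, minus strand). Controls WT2 to WT6 were at 299.7, 229, 326, 288 and 222 FPKM, and knockouts CKO7, CKO8, CKO9, CKO12 and CKO13 at 167, 178, 217, 216 and 132 FPKM. All 5 knockout libraries were below all 5 controls, although CKO9 and CKO12 came within a few FPKM of WT6. The change was -0.59 (SE 0.16, limma adjusted p = 0.00596, exact permutation p = 0.00794), and the mean fell by 33.3%. Under median-of-ratios scaling it was -0.20 and was not called (limma adjusted p = 0.330). Groups without overlap were found for 3 of the 9 tested genes with knockout higher and for Nfe2 with knockout lower, against 12.9% and 22.1% of all tested genes.

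Gfi1b and Bcl11a encode repressors. GFI1B recruits LSD1 and CoREST in erythroid and megakaryocyte precursors, and BCL11A silences fetal-type globin genes and is needed in lymphoid and stem cells. Gfi1b (ENSMUSG00000026815, chr2:28609450-28621982, minus strand) was at 92.1, 79.6, 82.1, 53.4 and 53.8 FPKM in controls WT2 to WT6 and at 97.0, 94.9, 100.2, 81.3 and 76.1 FPKM in knockouts CKO7, CKO8, CKO9, CKO12 and CKO13. The controls fell apart into 3 libraries near the knockout values and a lower pair, WT5 and WT6. The change, 0.34 (SE 0.16), did not pass (limma adjusted p = 0.0827). It passed in 6 of 21 alternatives, among them 4 of the 5 other scalings and the fit without WT2 (0.44, limma adjusted p = 0.0345).

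Bcl11a (ENSMUSG00000000861, chr11:24078056-24174123, plus strand) was the steadiest of the 10 in the controls. It was at 47.8, 40.9, 47.2, 45.7 and 41.6 FPKM in controls WT2 to WT6 and at 39.1, 35.7, 42.9, 36.6 and 38.0 FPKM in knockouts CKO7, CKO8, CKO9, CKO12 and CKO13. CKO9 lay within the control range and the other 4 were below it. The change was -0.21 (SE 0.10, limma adjusted p = 0.101), and its sign depended on the scaling. It was called lower under equal totals (-0.35, limma adjusted p = 0.0280) and upper-quartile scaling (-0.22, limma adjusted p = 0.0265), and was 0.17 under median-of-ratios scaling (limma adjusted p = 0.141). The antisense gene 4930538E20Rik shares 316 of the 13175 exonic bases of Bcl11a, at 0.61 FPKM in controls and 0.576 FPKM in knockouts. Reads within the shared bases cannot be told apart without strand.

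The scaling decided how much of the pattern was read as higher or lower. Median-of-ratios scaling over all genes moved the median of the tested genes from -0.12 to 0.25, and equal totals moved it to -0.25. The share of calls that were higher was 40.1% on the values as deposited, 28.3% with equal totals, 50.4% with median-of-ratios scaling over the tested genes, and 78.9% with that scaling over all genes. Of the 9 tested members 5 were called higher under median-of-ratios scaling (44.2% of all tested genes) and with libraries matched to the authors' fold changes (44%), and none lower (11.8% and 11.3% of all tested genes). With equal totals 3 were called higher (15.3%) and 4 lower (38.7%), with upper-quartile scaling 5 higher (23.1%) and 4 lower (35.3%), and with median-of-ratios scaling over the tested genes 5 higher (28.9%) and 2 lower (28.5%). A scaling divides all values of a library by the same factor. For members as for other genes, it therefore hardly alters the distance to the median of the tested genes. Across the 6 scalings Klf1 was 2.67 to 2.69 above it and Gata1 0.42 to 0.44 above it. Nfe2 was at -0.46 to -0.48 and Bcl11a at -0.09 to -0.10 relative to it. Klf1, Epor and Hemgn were called higher under all 6 scalings (15.3% of all tested genes), and no tested member was called lower under all 6 (10.9% of all tested genes).

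In the authors' deposited table, the log2 fold change was 2.84 for Klf1 (adjusted p = 1.44e-10), 1.55 for Hemgn (adjusted p = 4.55e-13) and 1.51 for Epor (adjusted p = 6.48e-19). The authors' deposited table also gave 0.75 for Gata1 (adjusted p = 1.63e-07) and 0.67 for Gfi1b (adjusted p = 0.00191), so 5 of the 10 genes were higher there, against 17.1% of the 23405 genes with an adjusted p. None of the 10 was lower in the authors' deposited table, against 11.5% of genes: Nfe2 was at -0.17 (adjusted p = 0.523), Tal1 at -0.09 (adjusted p = 0.738), Zfpm1 at -0.38 (adjusted p = 0.161), Lmo2 at 0.04 (adjusted p = 0.906) and Bcl11a at 0.15 (adjusted p = 0.335). For each of the 10 genes the value in the authors' deposited table exceeded the log2 ratio of mean FPKM, by 0.35 to 0.48.

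**Figure D2:**
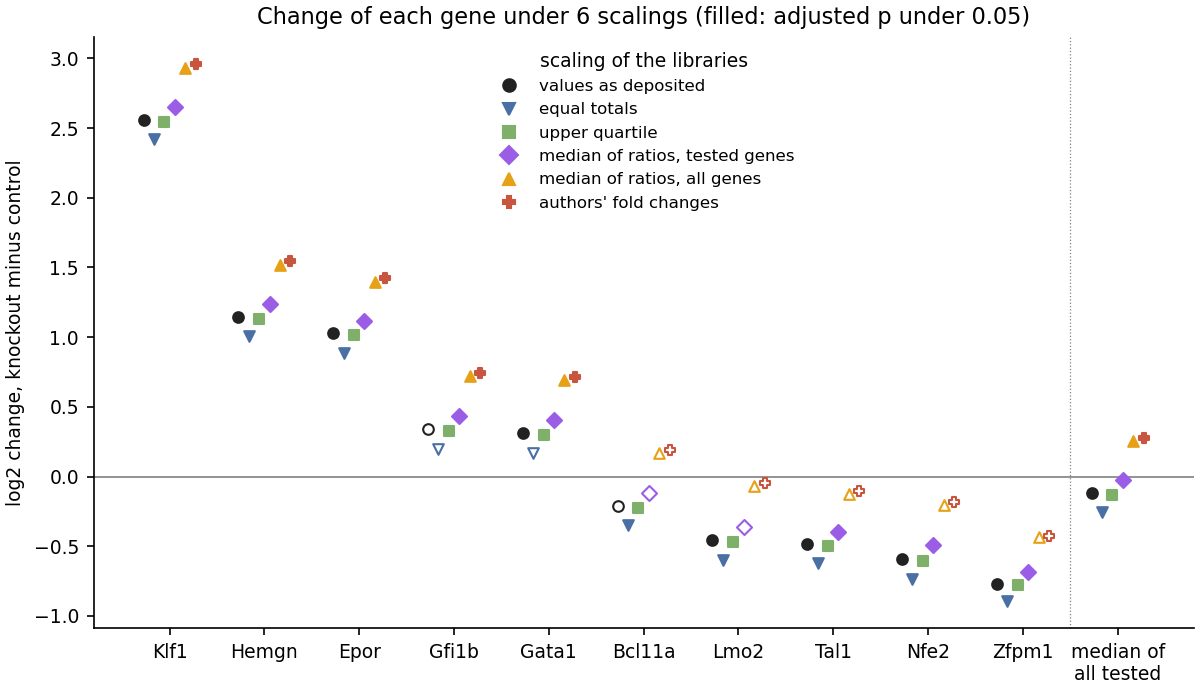
log2 change (knockout minus control, vertical axis) of each gene and the median of all tested genes under 6 scalings of the libraries (colour and shape), filled where the limma adjusted p was under 0.05 and open where it was not. Klf1, Hemgn and Epor are filled throughout, and Bcl11a lies on both sides of 0.

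The order of mean levels changed for Klf1, and Hemgn and Bcl11a changed places, with overlapping ranges in the knockouts. In control libraries Lmo2 (872 ± 131 FPKM, SD, n = 5) and Nfe2 (273 ± 45.6) stood above all others, followed by Gfi1b (72.2 ± 17.6), Gata1 (55.2 ± 6.63) and Bcl11a (44.6 ± 3.19), whose neighbouring ranges overlapped. Next came Hemgn (22.1 ± 6.13), Klf1 (20.2 ± 12.1), Epor (18.2 ± 3.14) and Tal1 (17.8 ± 3.74), again with overlapping ranges, and Zfpm1 (9.02 ± 1.34) was lowest. In knockout libraries Lmo2 (644 ± 139) and Nfe2 (182 ± 35.7) remained on top, and Klf1 (111 ± 17.6) was next, with a range that overlapped that of Gfi1b (89.9 ± 10.6). Gata1 (68.7 ± 8.32), Hemgn (49.1 ± 6.19), Bcl11a (38.5 ± 2.81) and Epor (37.7 ± 2.01) followed with overlapping neighbours, and Tal1 (12.5 ± 2.54) and Zfpm1 (4.97 ± 1.48) were each set apart at the bottom.

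Ratios between genes within a library do not depend on how libraries are scaled, apart from the pseudocount. There were 10 pairs, each tested by a two-sided exact permutation test with Benjamini-Hochberg adjustment over the 10. Of the 9 pairs given here, 8 differed between groups at an adjusted p under 0.05, and 6 did not overlap. The log2 ratio of Klf1 over Gata1 was -1.91, -0.97, -2.34, -2.11 and -0.55 in controls WT2 to WT6 and 0.80, 0.61, 0.57, 0.77 and 0.63 in knockouts CKO7, CKO8, CKO9, CKO12 and CKO13. Klf1 was thus below Gata1 in every control and above it in every knockout library, a difference of 2.25 (exact permutation p = 0.00794, adjusted p = 0.0113).

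Zfpm1 over Gata1, the cofactor against its partner, went the other way. It was -2.47, -2.25, -2.70, -2.16 and -2.88 in controls WT2 to WT6 and -3.17, -3.65, -3.66, -3.59 and -3.78 in knockouts CKO7, CKO8, CKO9, CKO12 and CKO13. The groups did not overlap, and the ratio fell by 1.08 on the log2 scale (exact permutation p = 0.00794, adjusted p = 0.0113). Tal1 over Lmo2, the SCL subunits, was at -5.54 ± 0.35 in control and -5.57 ± 0.36 in the knockouts (mean ± SD of 5 libraries each, exact permutation p = 0.881, adjusted p = 0.881), a difference of -0.03 that was smaller than the spread in either group.

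Against factors of other fates, the erythroid member gained in each pair tested. Gata1 over Gata2, the GATA factor of stem cells and early progenitors that GATA1 replaces, was -2.21 ± 0.47 in control and -1.04 ± 0.40 in the knockouts (mean ± SD of 5 libraries each, exact permutation p = 0.0159, adjusted p = 0.0176), with WT4 inside the knockout range. Gata2 itself fell from 263 ± 56.6 to 144 ± 29.6 FPKM (limma adjusted p = 0.00112), so both genes entered the ratio. Gata1 over Spi1, which encodes the myeloid and lymphoid factor PU.1, differed by 0.96 without overlap, and Klf1 over Fli1, which encodes an ETS factor of megakaryocytes, by 3.12 without overlap (each exact permutation p = 0.00794, adjusted p = 0.0113). Spi1 fell by 0.65 on the log2 scale (limma adjusted p = 0.00188) and Fli1 by 0.56 (limma adjusted p = 0.00330). Gfi1b over Gfi1, its relative in myeloid and lymphoid cells, differed by 0.84 without overlap, but Gfi1 was at only 1.64 ± 0.19 and 0.876 ± 0.256 FPKM (SD, n = 5 each) and the difference moved with the pseudocount, to 1.21 with 0.1 and 0.50 with 5.

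Among receptors, Epor over Kit, the stem cell factor receptor, was -3.45, -2.61, -2.87, -3.43 and -2.71 in controls WT2 to WT6. It was -1.97, -1.73, -2.07, -1.16 and -1.23 in knockouts CKO7, CKO8, CKO9, CKO12 and CKO13. The groups did not overlap and differed by 1.38 (exact permutation p = 0.00794, adjusted p = 0.0113), although Kit exceeded Epor in every library. Nfe2 over Mafg, its small MAF partner, was 3.20 ± 0.38 in control and 3.80 ± 0.28 in the knockouts (mean ± SD of 5 libraries each, exact permutation p = 0.0159, adjusted p = 0.0176), with overlap, and Mafg fell from 28.9 ± 5.004 to 12.0 ± 0.9996 FPKM (limma adjusted p = 7.85e-06).

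**Figure D3:**
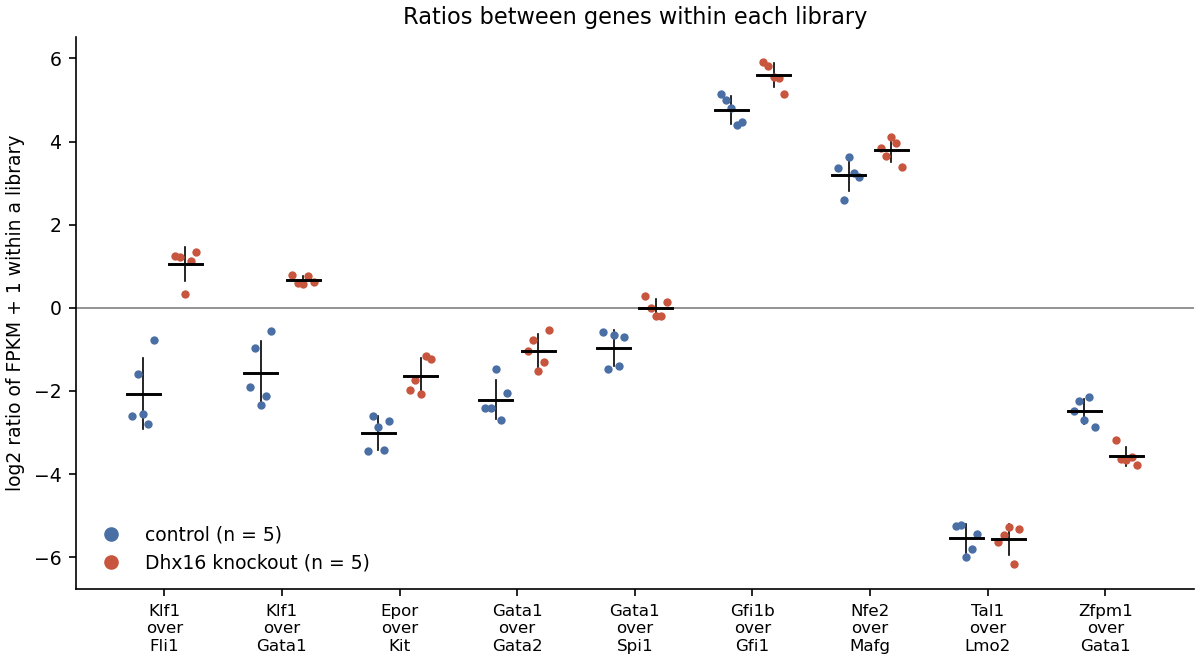
log2 ratio of FPKM + 1 (vertical axis) between the named genes in each control (blue) and knockout (red) library, with mean (horizontal bar) and SD (vertical line), n = 5 each. The groups are apart for 6 pairs, touch for Gata1 over Gata2 and Nfe2 over Mafg, and coincide for Tal1 over Lmo2.

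Genes around these factors were read from lists, described by counts and the median change. Of each list the text names up to 3 called genes with the greatest absolute change, and any further name was chosen after its values were seen. Of 10 partners of the SCL complex, all tested, 4 were called lower and none higher, with a median of -0.34. Over all tested genes 31.6% were called lower, a share near that of the partners. The 4 were Runx1 (-1.22), Cbfa2t3 (-0.97), which encodes the corepressor ETO2, Ssbp2 (-0.65), whose product stabilises LDB1, and Ldb1 itself (-0.39). Runx1 and Cbfa2t3 were lower under all scalings, as were 10.9% of all tested genes. Lyl1, the close relative of Tal1, was at 168 ± 20.1 and 180.5 ± 31.4 FPKM (SD, n = 5 each) and did not pass.

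Of 14 genes for CoREST and NuRD subunits, through which GFI1B, BCL11A and FOG1 repress, 9 were tested and 3 were called higher: Rbbp7 (0.92), which was higher under all scalings, Mta2 (0.47) and Hdac1 (0.39). The median was 0.28, and the counts, 3 of 9 and 1 of 9 under all scalings, lay near the 21.1% and 15.3% of all tested genes. Of 7 small MAF and CNC genes, 4 were tested and 3 were called lower, namely Mafg (-1.19), which was lower under all scalings, Mafk (-0.81) and Nfe2l2 (-0.37). Of 15 factors of other early fates, 11 were tested, 10 were called lower and 1, Ikzf1 (0.45), higher. Erg (-1.06), an ETS factor of stem cells, and Gata2 (-0.86) were among the greatest falls there, and 3 of the 10, Erg and Hlf (-0.84) among them, were lower under all scalings. For these lists the shares over all tested genes were 31.6% called lower and 10.9% lower under all scalings.

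Epor rose while most of its pathway did not. Of 23 symbols listed for EPOR signalling and STAT5 targets, 22 were found and 17 tested. Of the 17, 10 were called lower, 1 higher and 6 not called, with a median of -0.66. Among all tested genes 31.6% were called lower and 21.1% higher. The gene called higher was Tfrc, the transferrin receptor that brings in iron, from 14.98 ± 7.17 to 51.6 ± 16.7 FPKM (SD, n = 5 each, 1.77, limma adjusted p = 0.00496), under all scalings. Called lower were Socs3 (-1.45), a feedback inhibitor, Pim2 (-1.17), a survival kinase, and Cish (-1.15), a STAT5-induced inhibitor. Of the 10, Cish and Lyn were lower under all scalings. These 2 of 17 tested genes lay near the 10.9% of all tested genes. Jak2, the kinase bound to the receptor, was under the filter at 5.24 ± 0.70 and 3.66 ± 0.89 FPKM (SD, n = 5 each), and Stat5a (-0.15) did not pass.

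Most tested genes on a list of GATA1 and KLF1 targets were called higher. Of 32 erythroid effector genes, 31 were found and 19 tested, of which 15 were called higher under all scalings, with a median of 1.76, against 15.3% of all tested genes. The list was chosen with earlier results of these data known, so its count is a description and not independent evidence. The summed level was 1380 to 2300 FPKM in controls and 3625 to 5269 FPKM in knockouts. Cldn13 (3.38), Car1 (3.29), a carbonic anhydrase, and Ermap (3.22), a red cell membrane protein, changed most. Those not called were Slc4a1 (1.599), Slc25a37 (-0.06), Icam4 (-0.32) and Gypc (-0.19). Since a gene could pass the filter through the knockout libraries alone, the 15 of 19 is not a share of all 32, and 12 found genes were under the filter. Of those 12, Tmod1, which encodes a cap protein of actin filaments in the red cell membrane skeleton, was lower, at 5.22 ± 0.93 FPKM in controls and 2.12 ± 0.62 FPKM in knockouts (SD, n = 5 each), without overlap and with no test here.

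**Figure D4:**
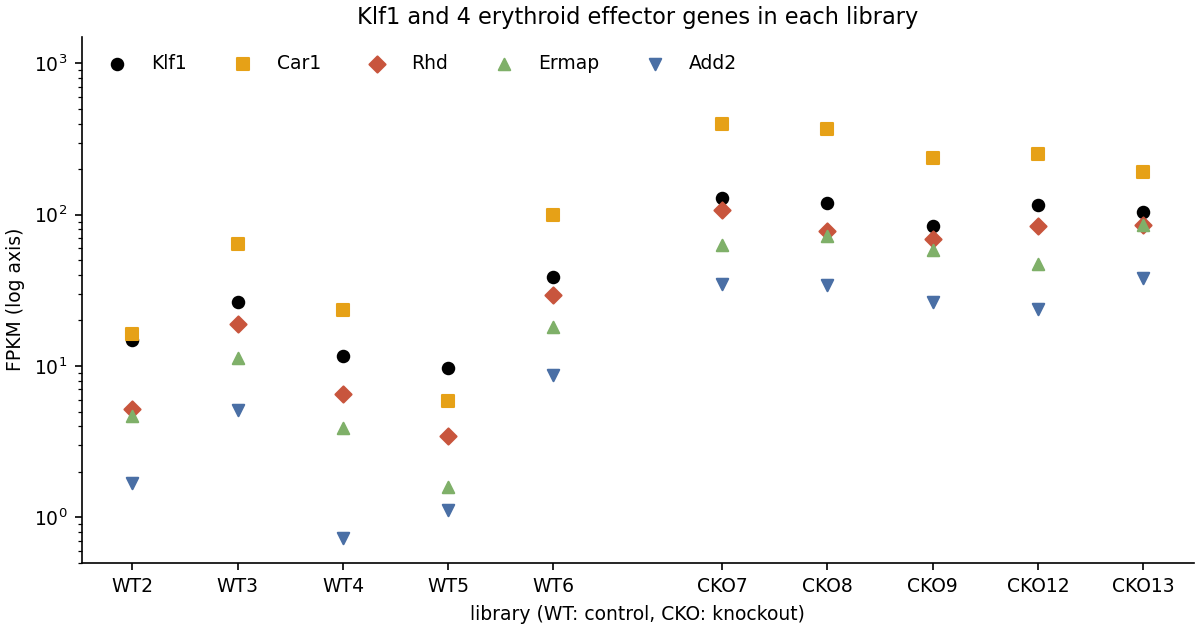
FPKM (log axis) of Klf1 and 4 effector genes (colour and shape), 2 of them shown beyond the naming rule and chosen after their values were seen, in each control (WT) and knockout (CKO) library. Within the controls the genes are mostly highest in WT6 and lowest in WT5, and every knockout value of each gene is above all its control values.

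The same libraries stood out for Klf1 and for the listed erythroid effector genes. Among the controls, WT6, which was highest for Klf1, was also highest for 23 of the 31 effector genes, and WT5, the lowest for Klf1, was lowest for 23. Among the knockouts, CKO7 was highest for Klf1 and for 24 of the 31, and CKO9 lowest for Klf1 and for 16. Globin RNA varied in the same libraries: summed over 7 genes it was 2863 FPKM in WT6 against 216 to 606 FPKM in the other controls, and 8151 FPKM in CKO7 and 1214 FPKM in CKO9, the extremes of the knockouts. The 4 tested globin genes were called higher under all scalings, as were 15.3% of all tested genes. They were led by Hba-a2 (2.86), Hbb-bs (2.77) and Hba-a1 (2.74), with overlapping groups, and near-identical copies can exchange reads. The part of globin-rich cells in the result for Klf1 was not tested.

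Of 21 symbols listed as further erythroid regulators, 20 were found and 13 tested, with a median of -0.67. Of these, 8 were called lower and 2 higher, against 31.6% and 21.1% of all tested genes. Mybl2 (1.12) and E2f4 (1.07), cell cycle transcription factors, were higher under all scalings, and Gmpr (-0.96), which encodes a guanosine monophosphate reductase rather than a regulator, was lower. Among all tested genes 15.3% were higher under all scalings and 10.9% were lower under all of them. On the sister lineage, 16 of 17 tested megakaryocyte and platelet markers were called lower, 15 under all scalings, with a median of -1.69. Since a gene could pass the filter through the controls alone, the 16 of 17 is not a share of all 19 listed. Their summed level was 2421 to 3228 FPKM in controls and 1060 to 1897 FPKM in knockouts. Of the mast cell, basophil and eosinophil markers 2 of 14 were tested and neither was called, and of the T and NK lymphocyte markers the 1 tested gene was not called. Of 3 tested B lymphocyte and plasmacytoid dendritic cell markers 2 were called lower, none under all scalings.

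**Figure D5:**
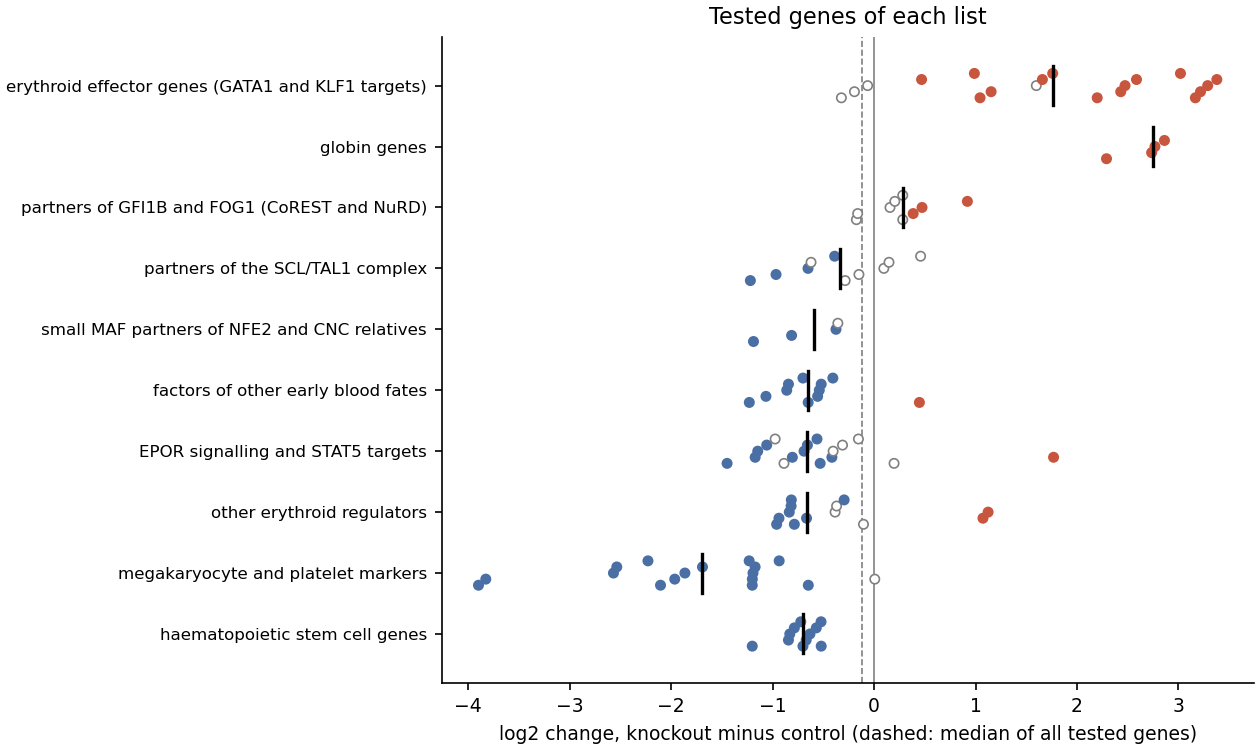
log2 change (knockout minus control, horizontal axis) of every tested gene of 10 lists, red where called higher, blue where called lower and open where not called, with the median of each list as a vertical bar. Erythroid effector and globin genes lie mostly above 0, with medians of 1.76 and 2.75, and megakaryocyte markers below it.

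Profiles over the 10 libraries were compared by the root mean square distance between centred log2 (FPKM + 1) values, over 6904 tested genes that are not members. These distances describe the same libraries that gave the changes and carry no test. The genes closest to Klf1 were Ccne1 (0.197), Atp1b2 (0.198) and Ctse (0.307), with Ccne1 going from 8.85 ± 5.02 to 52.5 ± 9.16 FPKM (SD, n = 5 each). Closest to Epor were Pigq (0.141), Gatm (0.144) and Slc25a38 (0.144), and closest to Hemgn were Fech (0.0989), Aqp1 (0.132) and Alad (0.143). Closest to Gata1 were Nt5dc2 (0.0851), Gga2 (0.116) and Psmd11 (0.119), and closest to Gfi1b were Nop56 (0.0964), Ahsa1 (0.102) and Fbl (0.117). For Nfe2 they were Orai3 (0.0593), Stap1 (0.0954) and Otos (0.0962), and for Lmo2 Shisa5 (0.0941), Saraf (0.103) and Dapp1 (0.114). Tal1 was closest to Taok2 (0.124), Zfpm1 to Mdc1 (0.167) and Bcl11a to D230025D16Rik (0.0589).

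Among the members themselves the closest pairs were Nfe2 with Lmo2 (0.174), Epor with Hemgn (0.175) and Gata1 with Gfi1b (0.242). Klf1 was far from all the others, at 0.771 from Hemgn, the nearest of them.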

How the data were processed

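RNA from 5 control and 5 Dhx16 knockout samples of sorted mouse haematopoietic stem cells was analysed from a single deposited table. Bowtie 0.12.9, Cufflinks 2.1.1, HTSeq and mm10 are listed per the submitters' processing notes, and the strand setting is not given in the sources used here. The library columns were taken as FPKM that the authors deposited, a unit inferred from the values since the header names none. The deposited mean normalized counts (a signal), log2 fold changes with their errors, the test statistic (a score) and each p-value are the authors' own results, in columns named as DESeq2 names them, per the file headers. Library columns are numbered otherwise than the sample titles and were assigned by name to a group only. No counts per library were used. The depth estimate assumes that low FPKM values are whole fragments, and 72.7 to 85.1% of them lay within 0.15 of one.

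The design named a count test first and limma for normalized values, and limma 3.58.1 (R 4.3.3, trend and robust options) was run on log2 (FPKM + 1) of genes that reached 10 FPKM in 5 or more libraries, with the values as deposited and no covariate, and Benjamini-Hochberg adjustment over all tested genes. Single values per library were compared by two-sided exact permutation tests. Other scalings (equal library sums, upper quartile, median of ratios, and knockout libraries shifted by 0.406 on the log2 scale to match the authors' fold changes), pseudocounts of 0.1 and 5, a filter of 1 FPKM or none, library quality weights, covariates and each library left out were tried. Median-of-ratios scaling over the tested genes, and the alternatives for Zfpm1 under the 1 FPKM filter, were chosen after seeing the data. The members and lists were chosen with earlier results of these data known. Named genes are all members, up to 3 called genes of greatest absolute change per list, partners in the ratios, and the 3 nearest profiles, of which only the first is given for Tal1, Zfpm1 and Bcl11a. Promoters came from RefSeq (GRCm38.p6), where 8 of 10 members matched, and gene positions from the GENCODE annotation of the same assembly. Python 3.11.15, numpy 2.4.6, pandas 2.3.3 and matplotlib 3.10.9 were used, and the limma step was tested on simulated data. A few genes that the rule would name, and 1 of the 10 ratio pairs, are not reported here.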

Additional observations from a re-analysis of the deposited data

Results flagged for a closer look

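Of 40 groups of 5 libraries examined, 1 held a library set apart from the rest, where chance gives about 1 in 20. The log2 ratio of Klf1 over Fli1 was 0.342 in knockout library CKO9 and 1.12 to 1.35 in the other 4 knockout libraries. The gap to the nearest was 0.772 of the whole range, above Dixon's critical value of 0.71 for 5 values. CKO9 had the lowest Klf1 and the highest Fli1 of the knockout libraries, and its ratio was still above that of every control. Without CKO9 the comparison of this ratio between groups kept its direction and its call.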

How the results depend on the processing

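The calls of Klf1, Epor and Hemgn as higher held in all 21 alternatives, with changes of 2.31 to 2.96, 0.89 to 1.43 and 1.01 to 1.55. The number of tested members called higher was 3 to 5 and the number called lower 0 to 4. The latter, 3 on the values as deposited, was 1 with no filter and 0 under median-of-ratios scaling and with libraries matched to the authors' fold changes. With each library left out in turn it was 1 to 3, at 1 without WT2 and without CKO13. Bcl11a turned to 0.17 under median-of-ratios scaling and 0.19 with libraries matched to the authors' fold changes. The ratio of Tal1 over Lmo2 turned to 0.0665 with a pseudocount of 5, and ran from -0.146 to 0.118 with each library left out in turn, above 0 without WT2, WT3 or CKO12. That of Nfe2 over Mafg was no longer called with a pseudocount of 5 (0.41, exact permutation test, adjusted p = 0.0882). The cause of these differences was not tested.

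Over all genes, 3642 were called, 6687 with the 1 FPKM filter and 5910 with none. Called higher were 1460, and 3053 under median-of-ratios scaling, 3039 when matched to the authors' fold changes and 954 with the covariates. Called lower were 2182, and 4890 with the 1 FPKM filter, 4523 with none, 816 under median-of-ratios scaling and 780 when matched to the authors' fold changes. Leaving out each library gave 3225 to 3701 called, 1236 to 1608 higher and 1894 to 2231 lower. No paired analysis was possible because the library columns carry other numbers than the sample titles. Without counts no counting error is given for low genes such as Zfpm1 and Gfi1.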
